A study of Homo sapiens with 4 samples.

Results

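The genes described are the writers of monoubiquitin on lysine 120 of histone H2B (H2BK120ub), namely *RNF20*, *RNF40*, *UBE2A*, *UBE2B* and *WAC*, and 5 genes of the PAF1 complex, namely *PAF1*, *CTR9*, *LEO1*, *CDC73* and *RTF1*. These 10 genes were chosen by symbol from the 28278 genes in the count table, and all 10 were among the 15150 genes that passed the filter on low counts. RNA was sequenced from HepG2 cells, labelled as a human liver cancer line, that carried Cas9 from a lentivirus together with either a control single guide RNA (control, 2 libraries) or a guide RNA against *USP22* (sgUSP22, 2 libraries). The cells of all 4 libraries received Sorafenib, a multikinase inhibitor used in advanced hepatocellular carcinoma, at 10 µM for 24 h, and no library of untreated cells is part of the comparison. The study's methods describe infected cell populations and name no single clone. The comparison asks whether transcripts of the enzymes that place the mark differ between cells with and without the guide against *USP22*, whose product removes it.

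Ubiquitin is attached to H2B by an E2 enzyme of the RAD6 type, encoded by *UBE2A* or *UBE2B*, working with a heterodimeric E3 ligase of RNF20 and RNF40. WAC binds this ligase and links it to RNA polymerase II. The PAF1 complex travels with the elongating polymerase and stimulates the ligase, and its subunit RTF1 carries the domain that acts on the E2. The mark is found over transcribed gene bodies and is known to favour methylation of H3K4 and H3K79. USP22, within the deubiquitinase module of SAGA, takes the ubiquitin off again.

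Totals ranged from 62030307 to 64728272 counts per library, and a count of 3 corresponded to between 0.0457 and 0.0492 CPM, a limit that covers counting error only. CPM is a gene's count scaled to the size of its library, here with TMM factors. Counts of *USP22* itself were 16450 and 16537 in control and 20279 and 20368 in the libraries labelled sgUSP22. Its transcript was thus not lower under the guide, and every direction below follows the label. These counts do not measure protein, and the study checked the knockout by Western blot. By the same method, and by spike-in chromatin immunoprecipitation sequencing under Sorafenib, it reported a higher level of H2BK120ub in knockout HepG2 cells. Of 22 genes that mark hepatocytes or HepG2 cells, 12 were at 0 in every library, *ALB*, *APOA1*, *APOB* and *TTR* among them, and 3 (*KRT8*, *KRT18* and *CPS1*) passed the filter. *AFP* and *HNF4A* reached at most 4 and 9 counts, so the liver identity in the label was not seen in these counts. The summed counts of the 22 markers ranged from 169049 to 172858 in the control libraries and from 168815 to 177589 in the libraries labelled sgUSP22, nearly all of them from *KRT8*, *KRT18* and *CPS1*. These 3 went opposite ways, all past adjusted p, with log2 fold changes of -0.37, -0.43 and 0.40. Of 5 fibroblast markers, 4 passed the filter, with summed counts of 35074 and 36224 in control and 47132 and 46115 in sgUSP22 libraries, and none of the leukocyte markers passed it. Most of the fibroblast sum came from *COL3A1*, with 30410 and 31662 counts in control and 37872 and 36728 in the others (log2 fold change 0.19). *COL1A1* did not pass adjusted p (log2 fold change 0.11), and *COL1A2* reached at most 7 counts. The sum also holds opposite changes. *DCN* had 624 and 585 counts in control and 5191 and 4996 in the others, a log2 fold change of 2.995. *PDGFRB* had 548 and 551 against 324 and 266, a log2 fold change of -0.98, and both were called. The 4 endothelial markers summed to between 8 and 33 counts. The part of these differences in the results below was not tested.

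*CTR9* was the member that moved most, with a level in the libraries labelled sgUSP22 that was 2.03 times that in control. The other 9 members stayed within 1.5-fold. In bulk RNA, a lower level from fewer cells of a kind and one from less RNA per cell cannot be told apart. By the quasi-likelihood test of edgeR, with p-values adjusted over all tested genes by the Benjamini-Hochberg method and a fold of at least 1.5, 1 of 10 members was called higher, against 8.88% of all tested genes, and 0 were called lower, against 7.25%. By adjusted p alone, 4 members were higher (*CTR9*, *WAC*, *CDC73* and *UBE2B*), against 26.8% of all tested genes, and 2 were lower (*UBE2A* and *PAF1*), against 25.8%. At an unadjusted p below 0.05 these numbers were 5 and 2, against 29.4% and 28.2% of all tested genes. After lowess trends with GC content and transcript length were removed from each library, they were 2 and 1 by adjusted p, against 23.9% and 25.1%. DESeq2 also called 1 member higher and 0 lower with the fold threshold. Both directions together, 6 of 10 members passed adjusted p, against 52.5% of all tested genes, so the share of members was near that of all genes. The 2 groups did not overlap for 7 members, 5 of them higher (38.3% of all tested genes) and 2 lower (37.6%). The median log2 fold change was 0.008 over the 5 writers and 0.11 over the 5 PAF1 complex genes, beside 0.00091 over all tested genes. That of the PAF1 complex genes turned to -0.010 after the removal of GC and length trends.

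**Figure D1:**
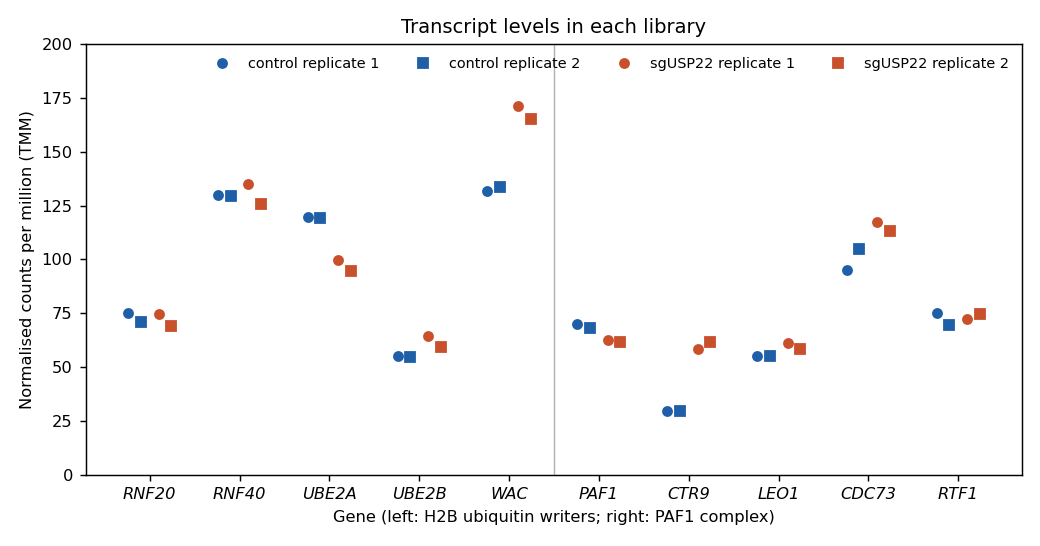
TMM-normalised CPM (vertical axis) of the 10 genes in each of the 4 libraries, blue for control and orange for libraries labelled sgUSP22, circles for replicate 1 and squares for replicate 2. *CTR9* lay at 29.4 and 29.6 in control against 58.2 and 61.6, while the points of *RNF20*, *RNF40* and *RTF1* overlapped between the groups.

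Per kilobase of the longest annotated transcript, *UBE2A* was the most abundant member in control cells at 45.2 ± 0.132 CPM per kb (SD, n = 2) and *CTR9* the least abundant at 6.81 ± 0.0222 (SD, n = 2). Between them stood *PAF1* at 31.4, *LEO1* at 25.5, *UBE2B* at 24.6, *RNF40* at 24.1, *WAC* at 22.4, *RNF20* at 18.5, *CDC73* at 17.0 and *RTF1* at 14.4 CPM per kb. Neighbours in this order did not overlap between the control libraries. In the libraries labelled sgUSP22, *UBE2A* was still first at 36.8 and *CTR9* still last at 13.8 CPM per kb, next to *RTF1* at 14.6. There, *WAC* at 28.4, *PAF1* at 28.3, *LEO1* at 27.6 and *UBE2B* at 27.6 overlapped and could not be ordered. The order depends on the transcript length used, since with the median length of coding transcripts *RNF40* stood first, and *CTR9* was last with either length.

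The promoter windows of *CTR9*, *WAC* and *UBE2A*, the 3 members that passed adjusted p under every scaling, filter, left-out library and the removal of GC and length trends, and of *RNF20*, which did not pass, are given here as RefSeq lists them for GRCh38.p14, from 250 bases before to 50 after the annotated start. Capitals mark matches, on either strand, to the GC box GGGCGG and the ETS word CCGGAAG, and overlapping matches run together. An NRF1 word, a YY1 word (AAGATGGC), CCAAT, the E-box CACGTG, the CRE TGACGTCA and TATAAA were also searched and had no match in the 4 windows shown. The windows are chr11:10750996-10751295 for *CTR9*, chr10:28532529-28532828 for *WAC*, chrX:119574313-119574612 for *UBE2A* and chr9:101533603-101533902 for *RNF20*, all on the plus strand. For *WAC* and *UBE2A*, RefSeq starts the gene downstream of its most upstream GENCODE start. Their windows therefore lie wholly inside the gene positions given below.
CTR9: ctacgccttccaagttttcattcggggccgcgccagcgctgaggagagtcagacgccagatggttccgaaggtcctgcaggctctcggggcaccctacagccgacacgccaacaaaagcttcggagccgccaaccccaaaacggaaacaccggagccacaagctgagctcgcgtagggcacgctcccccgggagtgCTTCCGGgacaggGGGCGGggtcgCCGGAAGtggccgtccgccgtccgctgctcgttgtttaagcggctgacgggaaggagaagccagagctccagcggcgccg
WAC: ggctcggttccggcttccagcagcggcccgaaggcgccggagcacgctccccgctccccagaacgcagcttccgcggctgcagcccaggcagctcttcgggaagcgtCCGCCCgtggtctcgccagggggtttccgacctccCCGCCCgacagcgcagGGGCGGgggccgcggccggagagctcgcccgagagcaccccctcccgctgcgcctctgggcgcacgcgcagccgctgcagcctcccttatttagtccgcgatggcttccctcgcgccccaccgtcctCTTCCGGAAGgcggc
UBE2A: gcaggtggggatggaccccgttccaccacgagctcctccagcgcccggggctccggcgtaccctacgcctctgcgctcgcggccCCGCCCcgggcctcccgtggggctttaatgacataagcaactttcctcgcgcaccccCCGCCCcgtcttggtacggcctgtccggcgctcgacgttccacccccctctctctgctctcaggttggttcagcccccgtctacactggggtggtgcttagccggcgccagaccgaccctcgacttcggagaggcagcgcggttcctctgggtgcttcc
RNF20: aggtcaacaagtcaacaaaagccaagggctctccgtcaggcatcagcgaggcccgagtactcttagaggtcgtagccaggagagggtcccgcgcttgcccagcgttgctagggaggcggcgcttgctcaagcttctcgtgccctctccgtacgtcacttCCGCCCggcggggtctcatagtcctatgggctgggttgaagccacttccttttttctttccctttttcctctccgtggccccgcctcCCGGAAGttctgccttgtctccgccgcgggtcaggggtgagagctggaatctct

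The *CTR9* window held 2 ETS words, starting at positions -54 and -30 from the start, around 1 GC box at -41. The *WAC* window held 3 GC boxes before the start and 2 overlapping ETS words after it, at 36 and 39. The *UBE2A* window held 2 GC boxes and no ETS word, and the *RNF20* window held 1 of each. The ETS word occurred in 10.3% and the GC box in 45.0% of the 35116 promoter windows of this length. Among the 9 windows listed for the members (*RNF40* has 2, and *CDC73* and *UBE2B* had no entry), 3 held the ETS word and 8 the GC box. GC content was 66.3% for *CTR9*, 74.7% for *WAC*, 69.3% for *UBE2A* and 60.7% for *RNF20*, beside a median of 58.7% over all windows. A match is a description of the letters only, and a link between these words and the levels was not tested. *RNF20*, with the ETS word at -4, had overlapping levels in the 2 groups.

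Neither gene of the E3 ligase passed the test. *RNF20* lies on chromosome 9 of hg38 from 101533853 to 101563344 on the plus strand. It had 4579 and 4411 counts in control and 4917 and 4460 in the libraries labelled sgUSP22, or 75.1 and 70.7 against 74.8 and 69.1 CPM. The groups overlapped, and the log2 fold change was -0.019 (95% interval -0.14 to 0.10, edgeR adjusted p = 0.799). *RNF40*, its partner in the heterodimer, lies on chromosome 16 from 30761745 to 30776307 on the plus strand and had 7913 and 8077 against 8871 and 8113 counts, or 129.8 and 129.5 against 135 and 125.7 CPM. Its libraries labelled sgUSP22 stood on either side of the control libraries, with a log2 fold change of 0.008 (95% interval -0.089 to 0.11, edgeR adjusted p = 0.895). For both genes the interval leaves out a change of 1.5-fold in either direction. *RNF40* shares 40.2% of its exonic bases with annotated genes on the opposite strand, *CFAP119* and a gene known only by an Ensembl identifier. This share was not split between these genes. Of the stretches of 50 bases in the canonical *RNF40* transcript, 38.95% occur in a transcript of 1 other gene, the one without a symbol. No counts were matched to that gene, so its part in the *RNF40* counts was not tested. *CFAP119* had 62 and 114 counts in control and 72 and 70 in the libraries labelled sgUSP22. The strand setting of the counting is not given in the sources used here.

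Within each library, the ratio of *RNF40* to *RNF20* counts does not depend on how libraries are scaled. It was 1.73 and 1.83 in control and 1.80 and 1.82 in the libraries labelled sgUSP22. The difference of the log2 ratios was 0.026 (two-sided exact permutation test, p = 1, n = 2 per group). With 2 libraries per group, such a test cannot go below 0.333.

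The genes of the E2 enzymes, which encode closely related proteins, moved in opposite directions in the counts as deposited, *UBE2A* down and *UBE2B* up, and the change of *UBE2A* was the firmer one. *UBE2A*, on chromosome X from 119474802 to 119591083 on the plus strand, had 7296 and 7434 counts in control and 6547 and 6109 in the libraries labelled sgUSP22. In CPM this was 119.7 and 119.2 against 99.6 and 94.6, so both libraries labelled sgUSP22 lay under both control libraries. The log2 fold change came to -0.30 (standard error, SE, of 0.041, edgeR adjusted p = 0.000207), and it ranged from -0.35 to -0.26 with each library left out in turn. After the removal of GC and length trends it was -0.49 (edgeR adjusted p = 6.87e-06). Its exons overlap *NKRF* and *STEEP1* on the opposite strand over 17.8% of their bases. The log2 fold changes of these neighbours were 0.083 and 0.052, neither past the test.

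*UBE2B*, on chromosome 5 from 134371184 to 134392108 on the plus strand, had 3363 and 3425 counts in control and 4246 and 3816 in the libraries labelled sgUSP22, or 55.2 and 54.9 against 64.6 and 59.1 CPM. The groups did not overlap, as for 75.9% of all tested genes. The log2 fold change was 0.17 (SE 0.054, edgeR adjusted p = 0.0249). The change did not pass with DESeq2 (adjusted p = 0.052) or after the removal of GC and length trends (edgeR adjusted p = 0.885, log2 fold change 0.011). Nor did it pass without either control replicate (log2 fold change 0.17 in each case) or without sgUSP22 replicate 1 (0.091). No stretch of 50 bases of the canonical *UBE2A* or *UBE2B* transcript occurs in a transcript of another annotated gene, the other E2 gene included. Further transcripts of the 2 genes were not searched, and the overlap of *UBE2A* exons given above is over all its transcripts.

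The ratio of *UBE2B* to *UBE2A* counts was 0.461 in each control library, and 0.649 and 0.625 in the libraries labelled sgUSP22. The ratio was thus 1.38 times higher, a log2 difference of 0.47 that ranged from 0.44 to 0.49 with each library left out (two-sided exact permutation test, p = 0.333, n = 2 per group, the smallest p possible). It was 0.50 after the removal of GC and length trends.

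*WAC* rose. It lies on chromosome 10 from 28532493 to 28623112 on the plus strand and had 8037 and 8343 counts in control against 11249 and 10657 in the libraries labelled sgUSP22, or 131.8 and 133.7 against 171.2 and 165.1 CPM. The groups were well apart, with a log2 fold change of 0.34 (SE 0.038, edgeR adjusted p = 4.98e-05), which was below the 1.5-fold threshold. With each library left out it ranged from 0.30 to 0.37. After the removal of GC and length trends it was 0.19 (edgeR adjusted p = 0.00371). The antisense gene *WAC-AS1*, which starts 0.573 kb inside *WAC* on the other strand, had 990 and 1042 counts in control and 1053 and 1054 in the libraries labelled sgUSP22, with a log2 fold change of -0.026 (edgeR adjusted p = 0.825).

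*CTR9* encodes the large scaffold subunit of the PAF1 complex, built of tetratricopeptide repeats. The gene lies on chromosome 11 from 10751246 to 10801625 on the plus strand, and its canonical transcript of 4330 bases has 25 exons. It had 1794 and 1844 counts in control and 3826 and 3979 counts in the libraries labelled sgUSP22. In CPM this was 29.5 ± 0.0963 (SD, n = 2) against 59.9 ± 2.41 (SD, n = 2). The distance between the groups was far larger than the spread within them, with a log2 fold change of 1.02 (SE 0.055, 95% interval 0.90 to 1.15, edgeR adjusted p = 5.52e-07). Its p-value ranked 203 among all tested genes, and 94.9% of tested genes had a lower log2 fold change. A rise of at least 2-fold at an adjusted p below 0.05 was seen in 4.0% of tested genes.

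The change of *CTR9* passed the test in every fit, with log2 fold changes from 0.98 to 1.05 with each library left out and at 0.95 after the removal of GC and length trends (edgeR adjusted p = 5.61e-07). Its exons overlap *EIF4G2*, an abundant gene on the opposite strand, and a small nucleolar RNA gene within it, over 2.67% of their bases. *EIF4G2* had 49446 and 50075 counts in control and 51836 and 51120 in the libraries labelled sgUSP22, a log2 fold change of -0.030 (edgeR adjusted p = 0.43). No stretch of 50 bases of the canonical *CTR9* transcript occurs in a transcript of another gene, and its further transcripts were not searched.

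The other subunit genes of the complex moved little. *CDC73*, which encodes the tumour suppressor parafibromin, lies on chromosome 1 from 193121983 to 193254815 on the plus strand and had 94.9 and 104.7 CPM in control and 117.4 and 113.1 in the libraries labelled sgUSP22. Its control libraries differed more between themselves, in CPM, than those of any other member, and the groups did not overlap. The log2 fold change was 0.21 (SE 0.051, edgeR adjusted p = 0.00651). It ranged from 0.14 without control replicate 1 to 0.28 without control replicate 2, and it turned to -0.072 (edgeR adjusted p = 0.286) after the removal of GC and length trends. At 34.3%, the GC content of its longest transcript was the lowest among the members.

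*PAF1*, which names the complex and pairs with LEO1 within it, lies on chromosome 19 from 39385629 to 39391154 on the minus strand. It had 70.1 and 68.1 CPM in control and 62.7 and 61.6 in the libraries labelled sgUSP22, a small step down without overlap. The log2 fold change was -0.15 (SE 0.046, edgeR adjusted p = 0.0173). It did not pass with DESeq2 (adjusted p = 0.0516), with library size alone (edgeR adjusted p = 0.0888) or after the removal of GC and length trends (log2 fold change -0.010). Without control replicate 1 the edgeR adjusted p was 0.092 and without sgUSP22 replicate 2 it was 0.106.

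*LEO1*, on chromosome 15 from 51938025 to 51971778 on the minus strand, had 55.2 and 55.3 CPM in control and 61.4 and 58.2 in the libraries labelled sgUSP22. These did not overlap, but the test over all genes gave an edgeR adjusted p of 0.0785 (log2 fold change 0.11, 95% interval 0.0034 to 0.22). With each library left out it ranged from 0.063, without sgUSP22 replicate 1, to 0.15. *RTF1*, whose product carries the histone modification domain, lies on chromosome 15 from 41408408 to 41483563 on the plus strand and had 75.0 and 69.5 against 72.2 and 74.5 CPM. Its groups overlapped, with a log2 fold change of 0.023 (95% interval -0.090 to 0.14, edgeR adjusted p = 0.737). *SKIC8*, listed under its older symbol *WDR61*, encodes a further subunit that is shared with the SKI complex and is not one of the 10 genes. It had 58.1 and 50.6 against 55.1 and 56.1 CPM, a log2 fold change of 0.034 (edgeR adjusted p = 0.694).

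**Figure D2:**
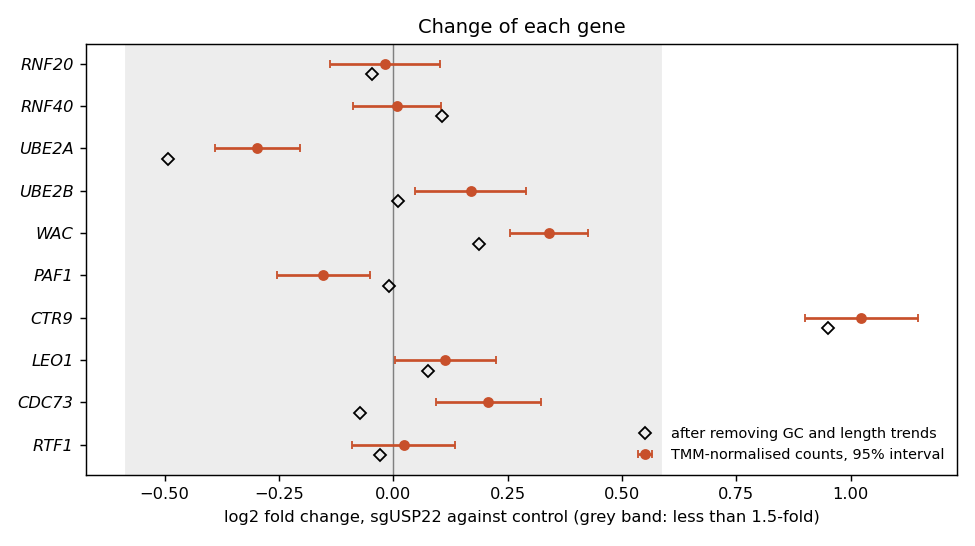
Log2 fold change of each gene in the libraries labelled sgUSP22 against control (horizontal axis), filled points with 95% intervals from edgeR and open diamonds after lowess trends with GC content and transcript length were removed. The grey band marks changes of less than 1.5-fold, and *CTR9* alone, at 1.02 and 0.95, lies outside it. *CDC73* moves from 0.21 to -0.072 and *UBE2A* from -0.30 to -0.49.

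The transcript of *CTR9* therefore changed its proportion to those of its partners in the complex, a comparison added after the values were seen. Relative to *PAF1*, *CTR9* had 0.42 and 0.434 times as many counts in control and 0.928 and 1.001 times in the libraries labelled sgUSP22. The log2 difference of this ratio was 1.18. Against *LEO1*, *CDC73*, *RTF1* and *SKIC8* the log2 differences were 0.91, 0.81, 0.999 and 0.98. In each of the 5 ratios the groups did not overlap. The two-sided exact permutation test gave p = 0.333 for each before any adjustment (n = 2 per group), the smallest p possible. All 5 ratios share the numerator *CTR9*, whose rise was already known, so this test cannot add evidence. They largely restate its log2 fold change of 1.02 and are not 5 separate results. Separated groups were also common among single genes, at 75.9% of all those tested. Of the summed CPM per kb of the 5 PAF1 complex genes, *CTR9* made up 7.13% and 7.19% in control and 12.8% and 13.8% in the libraries labelled sgUSP22. The share of *PAF1* went from 33.5% and 32.6% to 27.2% and 27.1%, and that of *RTF1* was 15.6% and 14.5% against 13.7% and 14.4%. The shares of *LEO1* and *CDC73* overlapped between the groups.

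**Figure D3:**
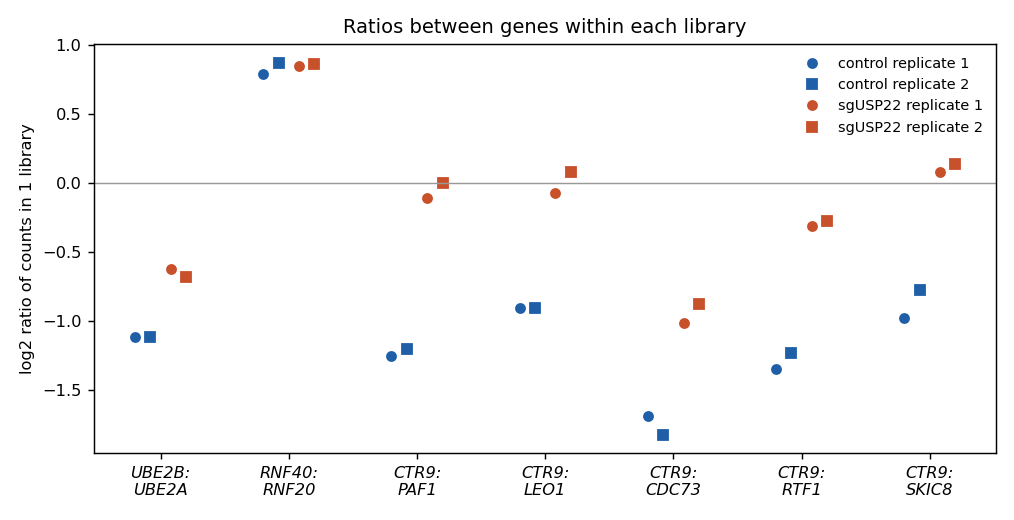
Log2 ratio of the counts of 2 genes within the same library (vertical axis) for 7 pairs, blue for control and orange for libraries labelled sgUSP22. *RNF40* to *RNF20* overlaps between the groups, while the other 6 ratios, among them *UBE2B* to *UBE2A* and the 5 ratios of *CTR9* to genes of its complex, are higher in both libraries labelled sgUSP22. The 5 ratios of *CTR9* share its rise and are not separate results.

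Genes near a member on the chromosome show whether its change was shared by its surroundings. Within 5 Mb on either side of the start of *CTR9*, 59 genes were tested, with a median log2 fold change of -0.079 (-0.15 after the removal of GC and length trends). Of these, 0 had a higher log2 fold change than *CTR9*, which itself was above 94.9% of all tested genes. Around *WAC*, on the short arm of chromosome 10, 31 genes had a median of 0.14 (0.033 after the removal). Of these, 10 were above *WAC*, which itself was above 77.7% of all tested genes. Among the 31 neighbours, 14 were higher and 2 lower by adjusted p from edgeR, beside 26.8% and 25.8% of all tested genes. The median over all tested genes of chromosome 10 was -0.33. Around *UBE2A*, 34 genes had a median of 0.068 (0.0028 after the removal), and 6 of these were below *UBE2A*. Of all tested genes, 24.0% were below *UBE2A*. *SLC25A5*, among these 6 and named after its value was seen, had a log2 fold change of -0.34. It starts at -6.38 kb from the most upstream start of *UBE2A*, at 119474802. The promoter window given above for *UBE2A* lies much farther downstream, at 119574313 to 119574612. Around *LEO1* the median of 51 genes was 0.30 (0.15 after the removal), the highest before the removal among the windows of all members. It was above the 0.11 of *LEO1* itself.

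**Figure D4:**
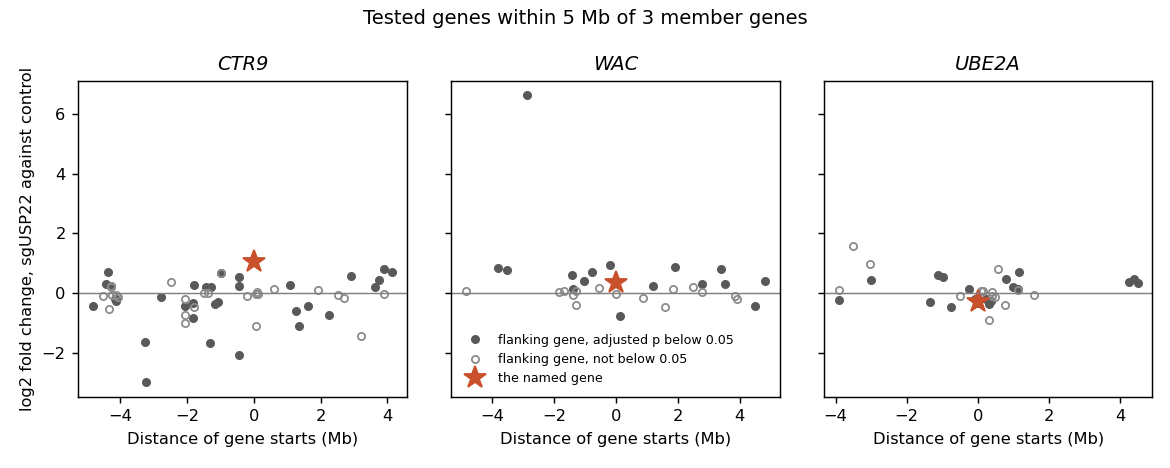
Log2 fold change (vertical axis) of the tested genes within 5 Mb of the start of *CTR9*, *WAC* and *UBE2A* (stars), against the distance of their starts in Mb, positive in the direction of transcription. The star of *CTR9* stands above all 59 of its neighbours, and that of *WAC* lies among its 31 neighbours with 10 above it. Of all tested genes, 94.9% lay below *CTR9* and 77.7% below *WAC*.

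Genes around the same reaction were described from lists that were chosen with earlier results of these data known. For every list below, counts by adjusted p stand beside 26.8% higher and 25.8% lower over all tested genes. After the removal of GC and length trends, these shares were 23.9% and 25.1%. Of 15 genes of H2B deubiquitination, 14 were tested, and 9 were higher and 0 lower by adjusted p, with a median log2 fold change of 0.23. After the removal 5 were higher and 1 lower, with a median of 0.099. *USP22* was among the higher ones, at 0.22 (edgeR adjusted p = 0.000394). *USP27X*, which encodes an alternative catalytic subunit for the same module, was called at 1.5-fold, with 61 and 65 counts in control and 196 and 206 in the libraries labelled sgUSP22. The log2 fold change came to 1.59 (SE 0.22, edgeR adjusted p = 0.000183), at a level of only 1.02 ± 0.0293 CPM in control (SD, n = 2).

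Of the 6 genes for ubiquitin precursors and E1 enzymes, 5 were lower and 1 was higher by adjusted p, with a median of -0.25, and 3 were lower and 1 higher after the removal, with a median of -0.18. *UBA6*, which encodes an alternative E1 enzyme, had a log2 fold change of 0.51, or 0.18 after the removal. All 6 stayed within 1.5-fold. Of 7 other ligases related to RAD6-type E2 enzymes, 6 were higher and 0 lower, with a median of 0.28, but only 2 were higher and 1 was lower after the removal, with a median of 0.053. *SHPRH* was at 0.52 and *UBR4* at 0.10, and after the removal they stood at 0.22 and -0.017 and neither was past the test.

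Of 19 genes for methylation of H3K4 and H3K79, which H2BK120ub is known to favour, 9 were higher, 3 were lower and 7 did not pass, with a median of 0.052. *KMT2C*, a methyltransferase gene for H3K4 at enhancers, was the 1 gene called at 1.5-fold, from 49.5 ± 0.185 to 87.0 ± 8.04 CPM (SD, n = 2 per group), a log2 fold change of 0.81. After the removal of GC and length trends, 6 of these genes were higher and 2 lower, with a median of 0.092, and *KMT2C* stood at 0.58, just under 1.5-fold. Of 25 elongation partners, 10 were higher, 6 lower and 9 did not pass, with a median of 0.090. *CHD1*, which encodes a chromatin remodeller that binds methylated H3K4, and *CCNT2*, which encodes a cyclin partner of CDK9, were called higher, with log2 fold changes of 0.65 and 0.68. After the removal these were 0.37 and 0.42, under 1.5-fold, and 8 of the 25 genes were higher and 5 lower, with a median of 0.016.

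The ligases for the other histone ubiquitin mark, on H2A, included genes called in either direction. Of 11 genes of the PRC1 group, 2 were higher, 3 were lower and 6 did not pass, with a median of -0.016. *PCGF6* fell from 29.7 ± 1.68 to 13.3 ± 1.81 CPM (SD, n = 2 per group), a log2 fold change of -1.16 (SE 0.10, edgeR adjusted p = 1.09e-05). *PCGF3* rose, with a log2 fold change of 0.67 (SE 0.096, edgeR adjusted p = 0.000257). After the removal of GC and length trends they stood at -1.21 and 0.62, and 3 of the 11 genes were higher and 6 lower, with a median of -0.22.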

How the data were processed

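Gene counts were deposited for 4 libraries of polyA RNA, 2 per group, and each column was assigned to its group by its name. The authors aligned reads to hg38 with HISAT2 2.2.1 and calculated gene counts with StringTie 2.2.1, which were deposited as unscaled integers. The annotation, strand setting and read length are not given in the sources used here, and StringTie derives counts from coverage, so their absolute scale depends on an assumed read length. Nothing says that replicates came from separate cultures, so p-values measure only the spread between these libraries, which may be technical.

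The analysis used edgeR 4.0.16 under R 4.3.3 (TMM, filterByExpr with a minimum count of 10, glmQLFit, glmQLFTest), with standard errors from the absolute log2 fold change and the F statistic. Calls required an adjusted p below 0.05 over all tested genes and 1.5-fold, the study's thresholds. DESeq2 1.42.0 was an alternative. The procedure was tested on simulated data. Positions, lengths and GC content came from GENCODE v44 (hg38), matched to 26180 of 28278 symbols, and promoters from RefSeq. In the correction for GC content and length, lowess trends with a span of 0.3 entered as offsets for the 14600 of 15150 tested genes that had both values. Besides this correction and DESeq2, results were recomputed with each library left out, with the replicate block, with RLE factors or only library size as scaling, with all counted genes or only those averaging 50 counts, and without a fold threshold or with a test against 1.5-fold.

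The members and lists were chosen with earlier results of these data known. All members are named. Of each list, called genes are named, at most 3 per direction, and otherwise the highest and lowest past adjusted p. A result that this rule would name is not reported here. The nearest-neighbour windows and the ratios of *CTR9* were added after values were seen.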

Additional observations from a re-analysis of the deposited data

How the results depend on the processing

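With full data, 60 of 70 comparisons of a member's log2 fold change with another setting kept both the direction and the outcome of the test at adjusted p, and with 1 library left out 30 of 40 did. In the latter, each arm with a lone library was assumed to vary like the other. *CTR9*, *WAC* and *UBE2A* kept their direction and passed adjusted p in all of these. *UBE2B* did not pass adjusted p with DESeq2 (0.17), no filter (0.17) or the removal of GC and length trends, called the correction here (0.011). Nor did *PAF1* with library size alone (-0.10), DESeq2 (-0.15) or the correction (-0.010), while *LEO1* passed with library size alone (0.17). The direction turned for *RNF20* with library size alone (0.033), and with the correction for *CDC73* (-0.072) and *RTF1* (-0.030). With each library left out, values ranged from 0.091 to 0.23 for *UBE2B*, which did not pass without either control library or sgUSP22 replicate 1. They ranged from -0.18 to -0.13 for *PAF1*, which did not pass without control replicate 1 or sgUSP22 replicate 2. For *RNF20* the range was -0.090 to 0.037 (0.025 without control replicate 1, 0.037 without sgUSP22 replicate 2). For *RNF40* it was -0.057 (without sgUSP22 replicate 1) to 0.058. For *RTF1* it was -0.031 (without control replicate 2) to 0.078, with -0.00023 without sgUSP22 replicate 2. *LEO1* ranged from 0.063 (without sgUSP22 replicate 1) to 0.15, and *CDC73* from 0.14 (without control replicate 1) to 0.28. Members past adjusted p alone numbered 2 higher and 1 lower with the correction, against 4 and 2 without it (all genes 23.9% and 25.1%), and 1 lower with DESeq2 or library size alone, and with a library left out 3 to 4 higher and 1 to 2 lower. Without the fold threshold 4 members were higher and 2 lower. The median of the PAF1 complex genes was 0.17 with library size alone and -0.010 with the correction, and ranged from 0.063 (without sgUSP22 replicate 1) to 0.15 with a library left out. That of the writers ranged from -0.057 to 0.058. With the correction, chosen for ratios after the data were seen, the log2 difference was 0.50 for *UBE2B* to *UBE2A* and 0.15 for *RNF40* to *RNF20*. Over all genes, the count of calls was 578 higher and 428 lower with a test against 1.5-fold, and 4057 and 3904 without the fold threshold, by construction of these settings. The cause of the other changes was not tested. With the median length of coding transcripts, control levels per kb were 105.7 for *RNF20*, 198.2 for *RNF40*, 67.4 for *UBE2A*, 51.7 for *UBE2B*, 48.9 for *WAC*, 38.2 for *PAF1*, 11.3 for *CTR9*, 26.7 for *LEO1*, 20.3 for *CDC73* and 25.9 for *RTF1*.

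Replicate numbers were not taken as pairs, since no label ties a number to a batch and, across genes, libraries that share a number deviated from their group means with a correlation of 0.0607. With the replicate block 1341 genes were called higher and 1100 lower, against 1345 and 1098, and no call of a member changed. Only 2 libraries per group limit the precision, and small changes may have been missed.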
